A study of Helianthus annuus with 142 samples.

Results

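SF009_SF342 is a sunflower (Helianthus annuus) genotype whose name joins those of the lines SF009 and SF342. It was read as their hybrid, and its leaf transcriptome was compared between plants kept watered and plants left to dry out. All libraries whose labels carry this cultivar name were taken, which gave 6 RNA-seq libraries, beside 136 others in the series. The control group held 3 plants at a fraction of transpirable soil water of 1, and the stress group held 3 plants for which this fraction, the part of the plant-available soil water still left in the pot, had fallen to 0.1. The line SF009 was sampled in the same way with 3 control and 3 stressed plants. The line SF342 had 3 stressed plants but only 1 control library, replicate 3. Each plant grew alone in a pot with 15 L of soil, and leaves without petioles were harvested. The labels do not say which line was the seed parent, nor how inbred each line was. The series covers 24 genotypes, that is 8 lines and 16 hybrids, and the labels name no transgene. All groups shared the same potting soil, fertiliser and a leaf spray, Polyaxe, against thrips, and the growth protocol also names plants of another genotype, XRQ, so that it may have been written for another study of the same experiment.

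When a leaf dries out, abscisic acid accumulates, stomata close and carbon fixation falls. Plant cells in this state are known to raise transcripts of protective proteins, osmolyte synthesis and abscisic acid signalling, and to lower transcripts of photosynthesis, growth and cell division. A hybrid carries a chromosome set from each parent, so that at every gene an SF009 copy and an SF342 copy sit in the same nucleus and meet the same regulators. The gene identifiers of the count table have no symbols or descriptions in the sources used here, so the genes are described below by identifier, position, level and behaviour in the parents, and no pathway could be read.

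The 6 hybrid libraries held between 5465560 and 13511377 counted reads, against 4199265 to 13608185 in SF009 and 4640383 to 7390152 in SF342. Levels are given as CPM, a unit that sets each count against the size of its library, here after adjustment by the trimmed mean of M-values (TMM). On and off states, and the levels and ratios of genes chosen by them, used library totals alone, without TMM. In SF009 stress replicate 1 the 100 most abundant genes took 42.8% of the counts, against 24.4% to 30.3% in the hybrid libraries. Labels were compared with the data through 6993 genes that were on in some lines and off in others. The hybrid libraries matched the other hybrid libraries of their own label at 84.9% to 88% of these genes, and less often SF009 (75.9% to 78.1%) or SF342 (71.2% to 72.4%). The SF342 libraries matched their label at 90.7% to 93.1%. The SF009 libraries matched theirs at only 76.6% to 82.1%, and control replicate 2 lay closer to the hybrid SF009_SF326 (79.6%) than to SF009 (76.6%). It is 1 of 4 libraries in the series that lay closest to another genotype. Pairs of SF009 libraries agreed at 67.9% to 85.3% of these genes, pairs of hybrid libraries at 81.4% to 90.5% and pairs of SF342 libraries at 89.2% to 92.2%. Some genes had 0 counts in 1 plant and at least 1 CPM in another plant of the same water supply. They numbered 211 (0.57%) in SF342, where only the stressed plants could be compared, and 668 (1.81%) in the hybrid. In SF009 they were 2721 of the 36989 genes tested (7.36%). Results that use SF009 are therefore given with and without the doubted libraries where the value moved.

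Drought changed a large part of the hybrid's leaf transcriptome. With edgeR's quasi-likelihood test and a Benjamini-Hochberg adjusted p under 0.05, 5598 genes rose (15.1% of the 36989 tested) and 6998 fell (18.9%), 12596 in all (34.1%). The falls were the larger changes. The risen genes had a median log2 fold change of 1.19, and 3340 of them (59.7%) rose more than 2-fold, whereas the fallen genes had a median of −1.83 and 5571 of them (79.6%) fell more than 2-fold. Changes over 8-fold were found for 925 risen and 1607 fallen genes. The 3 stressed plants all lay above the 3 control plants for 7629 genes (20.6%) and all below for 8706 genes (23.5%), and among the called genes the groups did not overlap for 4985 risen ones (89%) and 6387 fallen ones (91.3%). Without stressed replicate 3, 8364 genes passed. With scaling by library totals alone, 12454 genes passed and 52% of them were higher, against 44.4% with the main scaling. In bulk leaf RNA, fewer cells of a type and less RNA per cell cannot be told apart.

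The size of the response was next read on genes chosen by the mean response of the other 21 genotypes. These include other hybrids of SF009 and of SF342, and the gene filter and the fitted variances came from all libraries. Over the other 21 genotypes, the mean response passed the test for 11692 genes upwards (31.6%) and 12282 downwards (33.2%). It was at least 2-fold up for 2487 genes (6.72%) and at least 2-fold down for 4982 genes (13.5%). In the hybrid, the risen set had a median log2 fold change of 1.98 (quartiles 1.36 and 3.11), 98.5% of its genes changed in the same direction, and 1898 (76.3%) passed the test. The fallen set had a median of −2.15 in the hybrid, with 98.9% in the same direction and 3887 (78%) past the test. SF009 gave medians of 1.90 and −1.89 on the same sets, with 1817 (73.1%) and 3552 genes (71.3%) called. SF342 gave 0.79 and −0.24, with 44 (1.77%) and 67 genes (1.34%) called. The SF342 values rest on a single control library.

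The share of counts showed the same shift in every hybrid plant. The risen set took 2.5%, 2.61% and 3.17% of the counts in control plants 1 to 3 and 17.7%, 20.4% and 19.9% in stressed plants 1 to 3. The fallen set took 31.9%, 31.5% and 28.4% in control plants and 7.05%, 10.2% and 4.49% in stressed plants. The control and stressed hybrid plants did not overlap in either share, and the means moved from 2.76% ± 0.357 to 19.3% ± 1.42 and from 30.6% ± 1.94 to 7.24% ± 2.85 (SD, n = 3 each), with an exact permutation p of 0.1, two-sided, the smallest that 3 against 3 can give. In SF009 the risen set went from 2.29% ± 0.233 to 15.1% ± 3.22 and the fallen set from 32.5% ± 3.4 to 8.55% ± 2.32 (SD, n = 3). In SF342 the risen set went from 3.64% in the only control plant to 5.59%, 7.8% and 8.17% in the stressed plants, and the fallen set from 23.8% to 20.2%, 17.1% and 16.3%. All 3 stressed SF342 plants thus stood between the control and the stressed plants of the hybrid in both shares. The watered SF342 plant stood there too, so this place is not particular to the stressed plants.

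**Figure D1:**
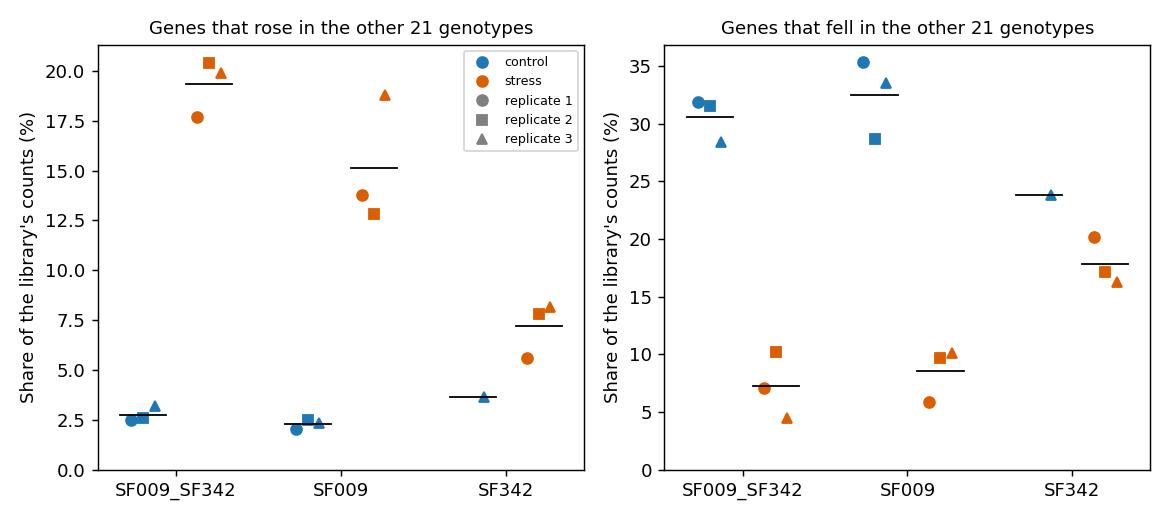
Share of each library's counts (%) taken by the 2487 genes that rose and the 4982 genes that fell at least 2-fold on average in the other 21 genotypes, for SF009, the hybrid SF009_SF342 and SF342; each point is 1 plant, coloured by water supply. In the hybrid the risen set took 2.5% to 3.17% of the counts in control plants and 17.7% to 20.4% in stressed plants, and SF342 moved less than the hybrid.

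A response score was computed for each stressed plant, by subtracting the mean log2 CPM of its own genotype's control plants and regressing the result, over genes, on the mean change in the other 21 genotypes. A score of 1 means a response of average size. The hybrid plants scored 1.28, 0.98 and 1.44 (mean 1.24 ± 0.235, SD, n = 3). The SF009 plants scored 1.22, 1.01 and 1.11 (1.11 ± 0.104). The SF342 plants scored 0.133, 0.303 and 0.411 (0.282 ± 0.14). The hybrid and SF009 overlapped, with a difference of 0.126 (exact permutation p = 0.5, two-sided). Every hybrid plant scored above every SF342 plant, with a difference of 0.953. The plants of a genotype share its control mean, and the 3 SF342 scores all rest on a single control library, so no p is given for this difference, and the p for SF009 treats as independent plants that share their controls. By mean score the hybrid ranked 5 of 24 genotypes and 5 of the 16 hybrids, SF009 ranked 11 and SF342 ranked 24. The other 15 hybrids had mean scores of 0.874 to 1.38 (median 1.14), and the hybrid lay within that range.

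**Figure D2:**
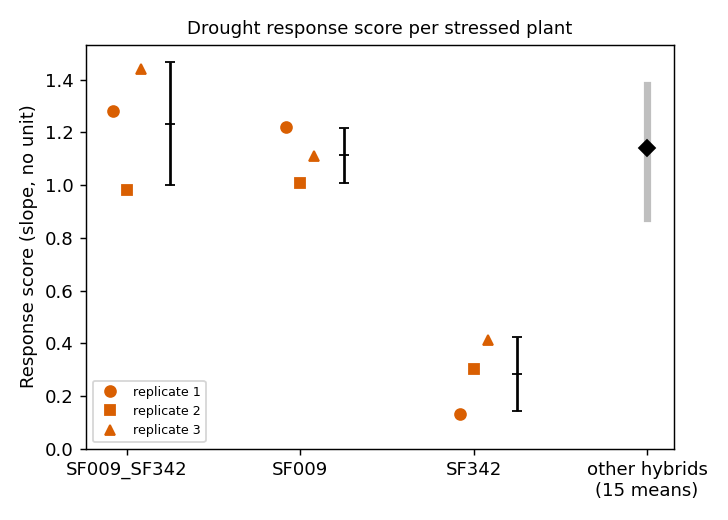
Response score (slope, no unit) of each stressed plant of SF009, SF009_SF342 and SF342, where points are plants and black bars are the mean ± SD of 3 plants; the grey bar gives the range of the mean scores of the other 15 hybrids and the diamond their median. The hybrid plants, at 0.98 to 1.44, overlap the SF009 plants and lie above the SF342 plants, at 0.133 to 0.411.

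Gene by gene, the hybrid's response was shared with SF009 to a large extent. In SF009, 5920 genes rose (16.0% of those tested) and 7045 fell (19.0%), 12965 in all (35.1%). The split turned from 45.7% higher to 55.2% higher with scaling by library totals alone, and to 50.4% without SF009 control replicate 2. Of the hybrid's risen genes, 3625 also rose in SF009, which is 64.8% of the hybrid's list and 61.2% of the SF009 list, and 13 fell there. Of the hybrid's fallen genes, 5011 also fell in SF009, 71.6% of the hybrid's list and 71.1% of the SF009 list, and 5 rose there. The sign of the SF009 response matched the hybrid's for 95.7% of the genes that rose in the hybrid and 97.9% of those that fell, whether or not they passed the test in SF009. The hybrid and SF009 responses were computed from separate plants and separate controls. Of the genes chosen on the other 21 genotypes, 98.5% of the risen and 98.9% of the fallen set also kept their direction in the hybrid. The likeness to SF009 is therefore not shown to be particular to this parent. Matching signs over all genes tested were not counted, here or for SF342 below.

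SF342 was tested with 1 control library against 3 stressed plants, so that its number of calls cannot be set against those of the hybrid and SF009. In this test 105 genes rose (0.284%) and 327 fell (0.884%), 432 in all. These counts fell to 230, 154 and 186 without stressed replicate 1, 2 and 3 in turn, and scaling by library totals alone left 160 calls and turned their split from 24.3% higher to 56.9% higher. Of the 105 risen genes 56 (53.3%) also rose in the hybrid, and of the 327 fallen genes 100 (30.6%) also fell in it, which is 1% and 1.43% of the hybrid's own lists. Among all of the hybrid's risen genes, 66.5% had a positive fold change in SF342, and 60% of its fallen genes had a negative one. The median fold changes in SF342 over these lists were 0.23 and −0.19 on the log2 scale, against 1.19 and −1.83 in the hybrid and 0.96 and −1.43 in SF009. The lists were called in the hybrid, so the higher hybrid medians are in part fixed by that choice.

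**Figure D3:**
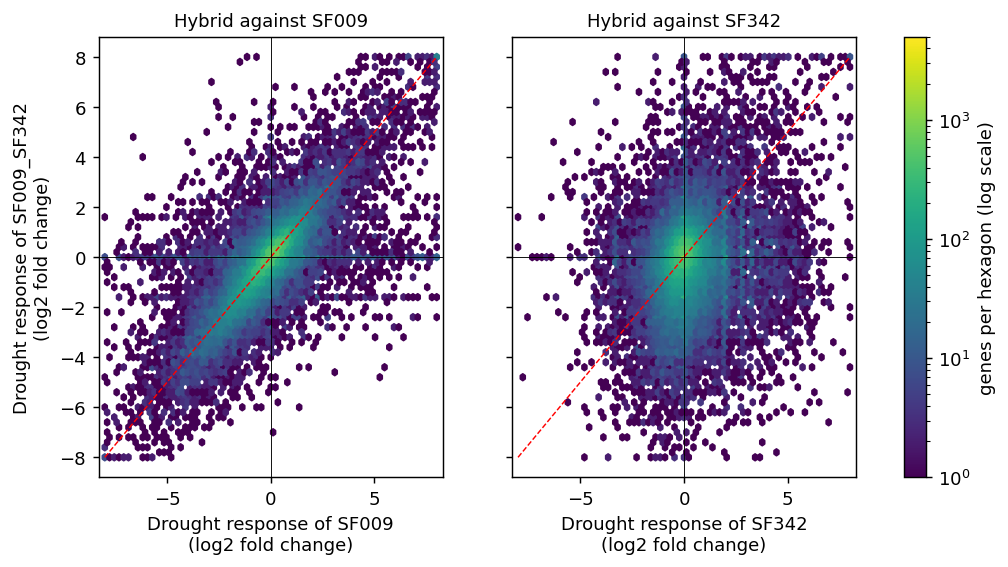
Drought response (log2 fold change, stress over control) of the hybrid on the vertical axes against that of SF009 and of SF342 on the horizontal axes, for the 36989 genes tested; shade gives genes per hexagon on a log scale, the dashed line marks equal responses, and values beyond 8 in size are drawn at the edge. Against SF009 the cloud follows the dashed line, whereas against SF342 it stands steeper, with large hybrid responses beside SF342 responses near 0.

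The difference between responses was then tested directly. The hybrid's response differed from that of SF342 for 1495 genes (4.04% of those tested), with 757 higher (2.05%) and 738 lower (2.00%) in the hybrid. Over the 757 genes the median log2 fold change was 1.21 in the hybrid, 0.78 in SF009 and −0.55 in SF342. Over the 738 genes it was −2.10 in the hybrid, −1.49 in SF009 and 1.09 in SF342. By median both groups of genes moved the same way in the hybrid and in SF009 and the opposite way in SF342. The hybrid and SF342 responses both entered the choice of these genes, so their opposite medians are in part fixed by it. Every SF342 value also rests on 1 control library. The median difference over all genes was −0.10 and moved to −0.24 with scaling by library totals alone, under which 1011 genes were called and 36.2% of them were higher, against 50.6% with the main scaling. The count depended on single plants. It was 822 without hybrid control replicate 3, then 563, 3887 and 507 without hybrid stress replicates 1, 2 and 3, and 634 and 666 without SF342 stress replicates 1 and 2. Hybrid stress replicate 2 was the plant with the lowest score of the hybrid, 0.98.

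Against SF009, the response differed for 110 genes (0.297%), 63 higher (0.170%) and 47 lower (0.127%) in the hybrid. By median these genes changed little in the hybrid. Over the 63 higher genes the median log2 fold change was 0.41 in the hybrid, 0.18 in SF342 and −4.99 in SF009, and over the 47 lower genes it was −0.31, 0.23 and 5.37. The hybrid and SF009 responses both entered the choice of these genes, so the large SF009 medians are in part fixed by it. Fitted fold changes against a group at 0 also depend on the prior count. Of the 110 genes, 50 (45.5%) were among those with 0 counts in 1 SF009 plant and at least 1 CPM in another SF009 plant of the same water supply, against 7.36% of all genes tested, and 2 were so in the hybrid. The part of this plant-to-plant difference in the result was not tested. The count was 318 without the 4 doubted libraries of the series, 246 without SF009 control replicate 3, 214 and 287 without SF009 stress replicates 2 and 3, and 67 and 66 without hybrid control replicate 1 and hybrid stress replicate 3. The split also turned, with 38.4% of calls higher without the doubted libraries, 43.9% without SF009 control replicate 3, 36.4% without SF009 stress replicate 2 and 48.3% without hybrid stress replicate 2, against 57.3% with all libraries. With only the 16 libraries of the 3 genotypes in the edgeR fit, 0 genes passed, 1474 had an unadjusted p under 0.05, and DESeq2 on those libraries called 26.

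The hybrid's response was also set against the mean of the parental responses. It differed for 55 genes (0.149%), of which 29 were higher (0.0784%) and 26 lower (0.0703%). The 29 genes had median log2 fold changes of 0.87 in the hybrid, 0.11 in SF009 and −0.52 in SF342. The 26 genes had medians of −1.74 in the hybrid, −0.38 in SF009 and 0.81 in SF342. The responses of the hybrid and of both parents entered the choice of these genes, so hybrid medians beyond both parents are in part fixed by it. This count was the least stable of the comparisons between responses. It was 1405 without hybrid stress replicate 2 and 6 and 12 without hybrid stress replicates 1 and 3, while leaving out hybrid control replicates 1 to 3 gave 16, 15 and 30. Leaving out SF009 control replicate 3 gave 295, SF009 stress replicates 2 and 3 gave 100 and 123, and SF342 stress replicates 1 and 2 gave 31 and 12. It was 231 without the doubted libraries.

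Against the mean response of the other 15 hybrids, only 10 genes differed (0.0270%), 6 higher (0.0162%) and 4 lower (0.0108%), at an adjusted p under 0.05 in edgeR. A gene on chromosome 10 had a log2 fold change of 2.69 in the hybrid, from 11 to 71.3 CPM, against a mean of 0.85 and a highest value of 1.63 in the other hybrids. A gene on chromosome 7 had −6.03, from 14.6 to 0.194 CPM, against a mean of 0.21 and a lowest value of −2.38, while it was at 1.26 in SF009 and −4.91 in SF342. A gene on chromosome 4 had 0.36 in this hybrid, from 2 to 2.54 CPM, where the other hybrids averaged 4.46, and its adjusted p within the hybrid was 0.747. These 3 genes were chosen for mention after their values were seen. The count was 6 without hybrid control replicate 3, 23 without hybrid stress replicate 2 and 20 without the doubted libraries.

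The largest rises and falls were taken among called genes with no overlap between the hybrid's control and stressed plants. The 2 largest rises in the hybrid were from near 0. HanXRQChr12g0372131 (chromosome 12, positions 71923936 to 71926108, minus strand, 2173 bp) stood at 0.155, 0 and 0.131 CPM in the control plants and at 57.5, 1830 and 106 CPM in the stressed plants. That all 3 stressed plants lay above the controls was required by the choice, and replicate 2 was the highest by an order of magnitude. The group totals were 3 and 14088 reads, a ratio of 4920 in CPM with a 95% counting interval of 1680 to 23900, and the log2 fold change was 12.45 (edgeR adjusted p = 5.01e-05), or 9.43 without stress replicate 2. In SF009 it went from 0.566, 0 and 0 to 52.5, 26.4 and 1440 CPM (log2 fold change 12.33, edgeR adjusted p = 0.000101). In SF342 it stayed low, at 0.144 CPM in the control and 0.377, 1.04 and 0.415 CPM under stress (edgeR adjusted p = 0.97). The other 15 hybrids had log2 fold changes of 5.08 to 12.51 for this gene, with a median of 9.61. Counting intervals cover counting error only.

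HanXRQChr05g0129681 (chromosome 5, positions 2679636 to 2682035, plus strand, 2400 bp) stood at 0, 0.117 and 0 CPM in the hybrid's control plants and at 38.2, 497 and 147 CPM under stress. A single read in the 3 control libraries stood against 5756 in the stressed ones, a ratio of 6030 in CPM with a counting interval of 1080 to 238000 (edgeR adjusted p = 9.85e-06). In SF009 it went from 0 in all 3 control plants to 122, 21.4 and 519 CPM, at least 2060-fold higher against a floor of 3 reads over the group, or 0.115 CPM (edgeR adjusted p = 1.27e-05). In SF342 it was at 0 in the control plant and at 0.377, 0.783 and 0 CPM under stress. Both genes were thus high in every stressed plant of the hybrid and of SF009 and at most 1.04 CPM in every SF342 plant. In the hybrid, this separation was in part fixed by the choice of the genes.

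The 2 largest falls ended at or near 0. HanXRQChr04g0116941 (chromosome 4, positions 139293889 to 139305237, minus strand, 11349 bp) stood at 113, 82.5 and 25.9 CPM in the hybrid's control plants and at 0 in all 3 stressed plants, at least 751-fold lower against a floor of 3 reads over the group, or 0.108 CPM (edgeR adjusted p = 1.98e-07). It fell in both parents too. In SF009 it went from 251, 89.4 and 222 to 0.234, 0.0955 and 0.174 CPM (log2 fold change −10.01 ± 1.70 SE, edgeR adjusted p = 2.06e-08). In SF342 it went from 19.9 CPM to 2.26, 0.13 and 0 CPM (−4.83 ± 1.48 SE, edgeR adjusted p = 0.0406). The test of the difference between the hybrid and SF342 responses gave an edgeR adjusted p of 0.134.

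HanXRQChr10g0312621 (chromosome 10, positions 222987888 to 222988514, minus strand, 627 bp) stood at 158, 113 and 394 CPM in the hybrid's control plants and at 0, 0 and 0.0655 CPM under stress. The group totals were 6025 reads and 1 read, a ratio of 5750 in CPM with a counting interval of 1030 to 227000 (edgeR adjusted p = 5.69e-05). In SF009 it went from 264, 11.2 and 743 to 0.234, 0.0955 and 0 CPM (edgeR adjusted p = 3.08e-05). In SF342 it was at 0.144 CPM in the control plant and at 5.66, 0.522 and 0 CPM under stress, low in the watered plant too (edgeR adjusted p = 0.834). The fitted difference between the hybrid and SF342 responses was −15.60 ± 7.78 SE on the log2 scale. It rests on 1 read in the lone SF342 control library, and the gene was chosen for its fall in the hybrid. It is therefore given as a description only.

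The largest differences from the parental mean response were taken among genes that passed that test and had a mean log2 CPM of at least 1 in the hybrid. Of these 4 genes, 1 rose in the hybrid and 3 did not pass the test of its drought response. HanXRQChr08g0216131 (chromosome 8, positions 27497615 to 27503589, plus strand, 5975 bp) stood at 4.18, 5.51 and 4.05 CPM in the hybrid's control plants and at 11.3, 11.6 and 8.58 CPM under stress, with no overlap (log2 fold change 1.19 ± 0.40 SE, edgeR adjusted p = 0.0145). In SF009 the control plants stood apart from each other, at 0.566, 12.6 and 4.22 CPM, and the stressed plants were at 0, 0 and 0.087 CPM. In SF342 it stood at 28.8 CPM in the control plant and 14.7, 16.8 and 17 CPM under stress. The hybrid's response exceeded that of SF009 by 8.14 ± 1.51 SE and that of SF342 by 2.02 ± 0.66 SE on the log2 scale. The SF009 part rests on stressed plants with 0, 0 and 1 reads, and the SF342 part on 1 control library. The difference from the parental mean was 5.08 ± 0.87 SE on the log2 scale (edgeR adjusted p = 8.36e-08). With only the 16 libraries of the 3 genotypes in the fit, that adjusted p was 0.156.

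The other 3 such genes were above 1 CPM in only 1 or 2 of the 6 SF009 plants. HanXRQChr17g0539101 (chromosome 17, positions 19190093 to 19194056, plus strand) ranged from 4.7 to 8.92 CPM over the 6 hybrid plants, and in SF009 it was at 8.25 CPM in control replicate 2 and at 0 to 0.145 CPM in the other 5 plants. Its difference from the parental mean passed the edgeR test (adjusted p = 0.0142), and the adjusted p was 0.271 without that SF009 plant, 0.249 without the doubted libraries and 0.308 with only the 16 libraries of the 3 genotypes in the fit, while DESeq2 gave none. HanXRQChr14g0451721 (chromosome 14, positions 144756300 to 144762766, plus strand) ranged from 4.74 to 9.28 CPM in the hybrid, and in SF009 it was at 0 in the control plants and at 1.76, 0 and 8.96 CPM under stress (edgeR adjusted p = 0.0109 for the difference). HanXRQChr03g0066521 (chromosome 3, positions 39876198 to 39878720, minus strand) ranged from 6.09 to 9.52 CPM in the hybrid, and in SF009 it was at 0 in the control plants and at 0.117, 1.15 and 8.09 CPM under stress (edgeR adjusted p = 0.0437). The difference at HanXRQChr14g0451721 was lost under 4 alternatives, namely without hybrid stress replicate 1 (adjusted p = 0.0599), with voom (0.0554), with DESeq2 (0.0968) and with only the 16 libraries of the 3 genotypes in the edgeR fit (0.291). That at HanXRQChr03g0066521 was lost under 15 alternatives (0.0582 to 0.289), among them leaving out any 1 control plant of the hybrid or of SF009, hybrid stress replicate 1 or 3, SF009 stress replicate 3, or SF342 stress replicate 1 or 2. None of these 3 genes passed the test in the hybrid itself, with edgeR adjusted p of 0.687, 0.754 and 0.895. For these 3 genes, the fitted fold changes of SF009 against a group at 0 depend on the prior count and are not given.

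**Figure D4:**
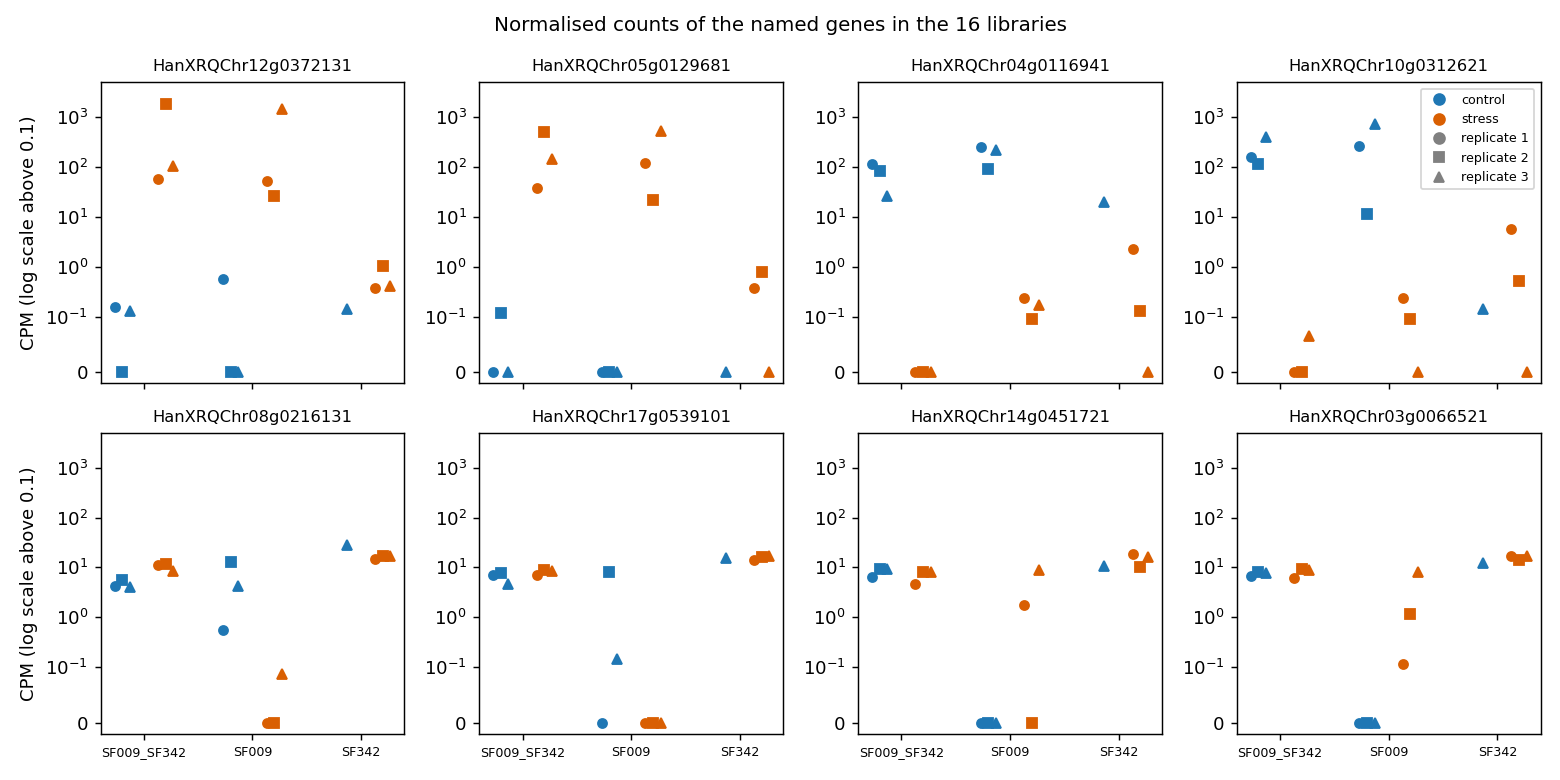
CPM of the 8 genes named above in each of the 16 libraries of SF009, SF009_SF342 and SF342, on a scale that is linear up to 0.1 CPM and logarithmic above it; each point is 1 plant, coloured by water supply. In the upper row, whose genes were chosen for no overlap in the hybrid, its control and stressed plants are separated by orders of magnitude. In the lower row the hybrid plants lie close together while the SF009 plants spread.

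Genes that switched between off and on were next counted over all 6 hybrid plants. In the hybrid, on means at least 1 CPM in each plant of a group and off means under 0.1 CPM in each. In the parents, the same thresholds were set on the mean of each group, so a single high plant can make a gene on. Drought turned on 46 genes that were off in the hybrid's control plants. Of these, 45 were on in stressed SF009 plants and 42 were off in SF009 control plants, whereas in stressed SF342 plants 11 were on, 14 were off and 21 lay between. The median level of the 46 genes under stress was 7.32 CPM in the hybrid, 4.1 CPM in SF009 and 0.325 CPM in SF342. In the other direction, 39 genes on in the hybrid's control plants were off under stress. Of these, 33 were on in SF009 control plants and 22 were off in stressed SF009 plants, with 17 between. In the SF342 control plant 10 of the 39 were on, and the median was 0.406 CPM there and 0.372 CPM in stressed SF342 plants, against 2.7 CPM in the hybrid's control plants. These genes were chosen on the hybrid's own levels, which are given as a description.

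Levels in the hybrid were also compared with each parent at the same water supply. Against SF009, 1513 genes (4.09%) differed in control plants, with 648 higher (1.75%) and 865 lower (2.34%) in the hybrid, and 1959 genes (5.30%) differed in stressed plants, with 822 higher (2.22%) and 1137 lower (3.07%). Against SF342, 4626 genes (12.5%) differed in control plants, with 2315 higher (6.26%) and 2311 lower (6.25%), and 8463 genes (22.9%) in stressed plants, with 4752 higher (12.8%) and 3711 lower (10%). The SF342 control group was 1 library, so neither the counts nor the medians against SF342 can be compared between control and stressed plants. Which direction was the more frequent against SF009 was not stable. In control plants 42.8% of the calls were higher, against 62.6% with voom, 72.8% with DESeq2, 89.3% with only the 16 libraries of the 3 genotypes in the edgeR fit, 55% without SF009 control replicate 3 and 53.2% without hybrid control replicate 1. Under stress 42% were higher, against 62.5%, 61.5% and 80.5% under the same 3 alternatives and 56.3% without SF009 stress replicate 3. The higher and lower calls against SF009 had median log2 differences of 3.48 and −3.97 in control plants and 3.25 and −3.92 under stress. Those against SF342 had medians of 3.75 and −2.01 in control plants and 1.99 and −1.69 under stress. Without hybrid stress replicate 3 the count under stress was 1249 against SF009 and 4854 against SF342. Without hybrid control replicate 1 the count in control plants was 966 against SF009, and it was 2338 without the doubted libraries.

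Genes on in 1 parent and off in the other were read in the hybrid next. In SF009, 302 genes were on in all 6 plants and off in all 4 SF342 plants. Of these, 218 were on in all 6 hybrid plants and 0 were off in all 6. Their level in the hybrid as a ratio to SF009 had a median of 0.676 in control plants (quartiles 0.53 and 0.874) and 0.572 under stress (0.47 and 0.723), and the ratio was below 1 for 262 and 288 of them. In the other direction, 73 genes were on in all SF342 plants and off in all SF009 plants. Of these, 34 were on in all 6 hybrid plants and 3 were off in all 6, and the ratio to SF342 had a median of 0.528 in control plants (0.317 and 0.818) and 0.417 under stress (0.258 and 0.535). In the hybrid 9 of the 302 rose with drought and 12 fell, and 4 of the 73 rose and 5 fell, where 15.1% of all genes tested rose and 18.9% fell. Genes on, or off, at both water supplies in a parent were required, which favours genes that do not respond, so nothing is read from these counts. The number of genes on in all 6 hybrid plants and off in all 10 parental plants was 0, and so was the number off in all 6 hybrid plants and on in all 10. Genes were chosen on high values in a parent, so a ratio under 1 is in part fixed by the choice. Without the doubted libraries, 120 genes were on in SF342 and off in SF009.

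**Figure D5:**
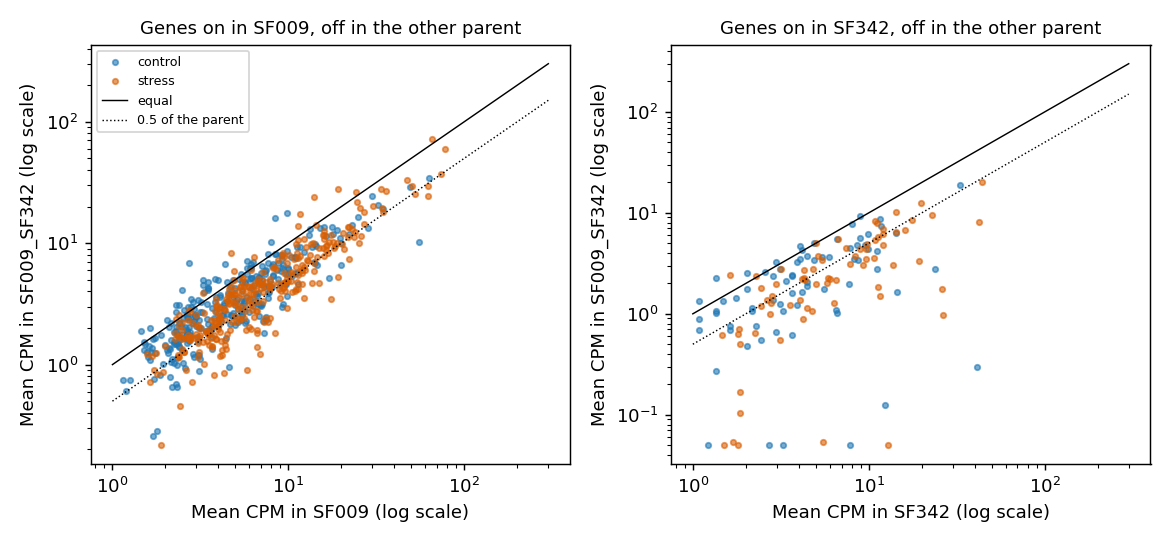
Mean CPM in the hybrid SF009_SF342 (vertical, log scale) against mean CPM in the parent that has the gene on (horizontal, log scale), for 302 genes on in SF009 and off in SF342 and for 73 genes with the reverse pattern, by water supply; the solid line marks equal levels and the dotted line 0.5 of the parent's level, and hybrid means under 0.05 CPM are drawn at 0.05. Most points lie under the solid line and around the dotted one, with median ratios of 0.676 and 0.572 for the SF009 genes and 0.528 and 0.417 for the SF342 genes.

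The responding genes were spread over the genome. Over the 17 chromosomes, 13.6% to 16.9% of the tested genes rose in the hybrid and 17.7% to 20.8% fell. The next tested gene along the chromosome also rose for 19.4% of risen genes, against 15.2% of all genes, and also fell for 22.5% of fallen genes, against 19.1%. The longest runs held 7 neighbouring risen genes each and lay on chromosome 4 (positions 173384768 to 173489821, median log2 fold change 1.63), chromosome 7 (101513048 to 101626679, 1.58) and chromosome 13 (161201186 to 161367187, 2.74). Neighbouring gene models that are near-identical copies could share reads, and this was not tested. Risen genes had a median length of 4056.5 bp and a median log2 CPM of 3.60, fallen genes 3639.5 bp and 2.92, and genes without a call 3163 bp and 1.87. The part of read depth in these differences was not tested.

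Genes encoded in the mitochondria and plastids moved in opposite directions as a share of the library. Mitochondrial genes took 0.986%, 0.978% and 1.09% of the counts in the hybrid's control plants and 1.2%, 1.18% and 1.38% under stress, with no overlap (means 1.02% ± 0.0626 and 1.25% ± 0.11, SD, n = 3, exact permutation p = 0.1, two-sided). Plastid genes took 0.151%, 0.162% and 0.129% in control plants and 0.109%, 0.0901% and 0.081% under stress, again with no overlap (0.148% ± 0.0168 and 0.0933% ± 0.0141, SD, n = 3, exact permutation p = 0.1). Of the 27 mitochondrial genes tested 3 rose and 0 fell in edgeR's test, and of the 8 plastid genes 0 rose and 1 fell, where 15.1% of all genes tested rose and 18.9% fell. These calls therefore add nothing to the shift in the shares. Whether the libraries were made from polyadenylated RNA is not stated in the labels, and organelle transcripts are mostly not polyadenylated.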

How the data were processed

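Leaf RNA-seq of 142 libraries was used. The authors deposited whole-number read counts per gene, per the file headers, with gene positions. Reads were paired, 100 bp and oriented, per the labels' protocols. In the submitters' processing notes, R 3.3.3 and edgeR 3.16.5 are named. Aligner, counting tool and genome build were not given in the sources used here. A deposited table of CPM after filtering was not used.

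Of 58050 genes, 17 ribosomal RNA genes were left out, and 36989 passed filterByExpr over 48 groups of genotype by water supply. All libraries were fitted together in edgeR 4.0.16 (R 4.3.3) with TMM scaling and robust quasi-likelihood tests, Benjamini-Hochberg adjusted over all genes tested. The dispersion trend came from every 20th gene by abundance. The lone SF342 control library was assumed to vary like the other groups. Scripts were tested on simulated data. limma 3.58.1 (voom) and DESeq2 1.42.0 served as alternatives, beside RLE size factors, library totals, no filter, fewer libraries, a replicate block and leaving out each library in turn. Response scores used log2 CPM with a prior count of 2, and on or off states in the label check used 0.5 CPM on genes with a line median of at least 1 CPM in 1 line and under 0.1 CPM in another.

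Of the gene identifiers, 0 matched the 83308 genes of the RefSeq table, so 0 of 18 planned gene lists could be run. Named genes include the 2 largest rises and falls among called genes with no overlap between the hybrid's control and stressed plants. The others are the 2 largest positive and negative differences from the parental mean response, among genes that passed the test of that difference. All were taken where the hybrid's mean log2 CPM reached 1. The members and lists were chosen with earlier results of these data known. Replicates are separate plants. The labels give no batch per library.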

Additional observations from a re-analysis of the deposited data

Results flagged for a closer look

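In 4 comparisons the drought response itself differed between genotypes, by edgeR's test of the difference at an adjusted p under 0.05. The response of SF009_SF342 differed from that of SF009 at 110 genes, from that of SF342 at 1495 genes, from the mean of both parents at 55 genes and from the mean of the other 15 hybrids at 10 genes. At an unadjusted p under 0.05, the first of these comparisons had 2457 genes. No explanation was weighed.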

How the results depend on the processing

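With the replicate number as a block, 12528 genes passed in the hybrid against 12596 without it, and the block moved no count of calls by more than 1.5 times. Deviations of same-numbered hybrid plants correlated at 0.275, −0.0843 and 0.037, and those of differently numbered ones at −0.293 to 0.197. So few values cannot decide whether the numbers pair the plants.

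Of 170 recomputed counts, 108 stayed within 1.5 times the reported one and 62 did not. Of 155 values of named genes, 132 stayed on their side of the threshold, 23 lost the call and 0 reversed, and 1 more got no adjusted p from DESeq2. For the hybrid's response, 6968 genes passed a test against a fold of 1.5, and leaving out a plant gave 8364 to 12767. The SF009 response gave 10015 to 12608 without 1 plant. For SF342, library totals gave 160, voom 691, no filter 232, only the 16 libraries of the 3 genotypes 20, the fit without the doubted libraries 695, and leaving out a plant 154 to 230.

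For the difference from SF009, DESeq2 gave 26, voom 59, the 16 libraries 0, the fit without the doubted libraries 318, and leaving out a plant 66 to 287. For the difference from SF342, DESeq2 gave 2646, voom 2607, no filter 867, the 16 libraries 502, and leaving out a plant 507 to 3887. For the difference from the parental mean, DESeq2 gave 664, library totals 27, voom 388, no filter 33, the 16 libraries 2, the fit without the doubted libraries 231, and leaving out a plant 6 to 1405. For the difference from the other hybrids, voom gave 38, the fit without the doubted libraries 20, and leaving out a plant 6 to 23.

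Levels against SF009 in control plants gave 621 with DESeq2, 280 with the 16 libraries, 2338 without the doubted libraries, and 966 to 1853 without 1 plant. Under stress they gave 873, 365 and 1249 to 1991. The share of higher calls moved with voom, DESeq2 and the 16 libraries. Against SF342, the 16 libraries gave 2866 in control plants, leaving out a plant gave 3501 to 4038, and under stress 4854 to 8573. At 2 and 0.05 CPM, 179 genes were on in SF009 alone and 34 in SF342 alone, and without the doubted libraries 120 were on in SF342 alone. The cause of these shifts was not tested. Response scores and organelle shares moved by less than their SD. With 3 plants a group and at most 13765614 reads a library, genes near 1 CPM are poorly resolved.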
